A study of Mus musculus with 6 samples.

Results

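The vacuolar ATPase (V-ATPase) is the proton pump that acidifies lysosomes, endosomes and secretory vesicles, and its subunits are encoded by a family of genes. The 10 subunit genes described here were chosen by their symbols, and the family was selected on measured values: the fall of *Atp6v0d2* between the 2 groups of these same libraries led to its choice. The question was whether other subunit genes moved with it. The members are 10 of the 14744 genes in the table, and 10 of 10 passed the filter on low values, 10 or more normalized counts in 3 or more libraries. *Atp6v0d2* passed it only through the WT libraries, so its difference between the groups is given as a description, without a test.

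The pump has a cytosolic V1 sector, which hydrolyzes ATP, and a membrane V0 sector, which carries protons across the membrane. In V1, the A subunit (*Atp6v1a*) holds the catalytic site and alternates with the B subunit (*Atp6v1b2*), the D subunit (*Atp6v1d*) is part of the central rotor, and the H subunit (*Atp6v1h*) is needed for activity of the joined complex. In V0, a ring of the proteolipids c (*Atp6v0c*) and c'' (*Atp6v0b*) turns against the a subunit (*Atp6v0a1*, *Atp6v0a2* and other isoforms), which directs the pump to particular membranes, and the d subunit couples the ring to the rotor. The d subunit has 2 isoforms: d1 is found in most tissues, while d2, the product of *Atp6v0d2*, is known from osteoclasts, macrophages, kidney and epididymis, and is required for the fusion of osteoclast precursors.

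RNA was sequenced from T follicular helper (Tfh) cells, which give help to germinal center B cells, in 3 WT samples and 3 samples of *Bach2* fl/fl Cd4-cre mice. The WT mice were littermates that carried Cd4-Cre without the floxed *Bach2* alleles, so both groups carried Cre. The Cd4-cre transgene drives deletion in T cells in general, not in Tfh cells alone, and the mice were of the C57BL/6J strain and 2 to 3 months old. The sort took 10000 to 30000 mesenteric lymph node cells per sample, positive for CD4, CD44, PD-1 and CXCR5 and negative for B220. Whether each sample came from 1 mouse or from several is not given in the sources used here, so the p-values measure the spread between these samples. The values are read counts per gene divided by a size factor of each library, called normalized counts below.

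*Bach2*, the gene deleted in the T cells of the second group, was examined first. It was at 233, 222 and 105 normalized counts in WT replicates 1, 2 and 3, and at 399, 763 and 591 in replicates 1, 2 and 3 of the *Bach2* fl/fl Cd4-cre group. Each of the latter thus exceeded each WT library (log2 fold change 1.68 with a standard error, SE, of 0.37, limma adjusted p = 0.141), against the direction that the label implies. The thresholds used here are a change over 2-fold together with an adjusted p under 0.01, and *Bach2* passed them with DESeq2 on 5 libraries, at 1.81 (adjusted p = 0.00123), and in limma with library weights, at 2.36 (adjusted p = 0.000186). Under the other alternatives the adjusted p by limma or edgeR was 0.0705 to 0.507. The counts cover the whole gene, with which Bach2it1 and Gm24371 overlap on the same strand and Bach2os on the other, and which exons the deletion removes is not given in the sources used here, so they do not check the deletion itself. The group is therefore called the libraries labelled Bach2-deficient, and each direction given here rests on that label.

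The libraries were not equally alike. In WT replicate 1 a value above 0 was listed for 11648 genes, where the others had 13111 to 13567, and its correlation with them across genes was r = 0.789 to 0.862. Replicate 3 labelled Bach2-deficient correlated with WT replicates 2 and 3 at r = 0.940 and 0.941, and with replicate 1 of its own group at 0.914. Values without 1 of these libraries are given beside results below. The depth, taken as the sum of whole multiples of the smallest value, was 6585742 and 7823717 reads in WT replicates 2 and 3, and 5045131, 10987752 and 7197242 reads in replicates 1, 2 and 3 labelled Bach2-deficient. For WT replicate 1 the same sum is 7737531, if its smallest value is 1 read.

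The 2 d subunit genes can be told apart by their sequence. In GENCODE M21, on GRCm38, *Atp6v0d2* lies at chr4:19876841-19922605 on the minus strand and *Atp6v0d1* at chr8:105524465-105566047 on the minus strand, and no other annotated gene overlaps either. Their coding sequences hold 1050 and 1053 bases and were identical at 692 of 1050 aligned positions (65.9%). The stretch of 90 coding bases in which they are most alike, bases 93 to 182 of both, is printed here because it is where reads of both genes would be hardest to separate. The capitals mark the 19 positions that differ.
Atp6v0d1: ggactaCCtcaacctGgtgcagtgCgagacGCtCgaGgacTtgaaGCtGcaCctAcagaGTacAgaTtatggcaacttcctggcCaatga
Atp6v0d2: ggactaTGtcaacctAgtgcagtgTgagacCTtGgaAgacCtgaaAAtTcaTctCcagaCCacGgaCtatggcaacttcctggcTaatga
The longest run of bases that the whole transcripts share was 17, and 0 of the 2490 windows of 50 bases in the *Atp6v0d2* transcript occurred in that of *Atp6v0d1*. Reads of that length from *Atp6v0d1* thus match no window of *Atp6v0d2* exactly.

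*Atp6v0d2* was at 77.7, 149 and 74.9 normalized counts in WT replicates 1, 2 and 3. In replicates 1, 2 and 3 labelled Bach2-deficient it was at 5.91, 4.02 and 1.02, which correspond to 4, 6 and 1 reads. The groups did not overlap, and each library labelled Bach2-deficient was far below each WT library. The means were 101 ± 42.1 (SD, n = 3) and 3.65 ± 2.47 (SD, n = 3). As summed reads this was 282 against 11, where the smallest value of WT replicate 1 is taken as 1 read. The Poisson 95% interval of the 11 reads, 5.49 to 19.7, covers counting error only and not the spread between samples.

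On the scale of log2(normalized count + 1), on which changes of genes with low values come out too small, the log2 fold change of *Atp6v0d2* was -4.55. Of the 11296 genes tested it had the third lowest value, after *Ccl20*, a chemokine, at -4.87, and *Il17f*, a cytokine of Th17 cells, at -4.70. It was selected on this contrast, so no p is given and nothing is concluded from its rank. Leaving out each library in turn gave values from -4.92 to -4.03. In a bulk sample, fewer cells that express the gene and less of its RNA per cell cannot be told apart.

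**Figure D1:**
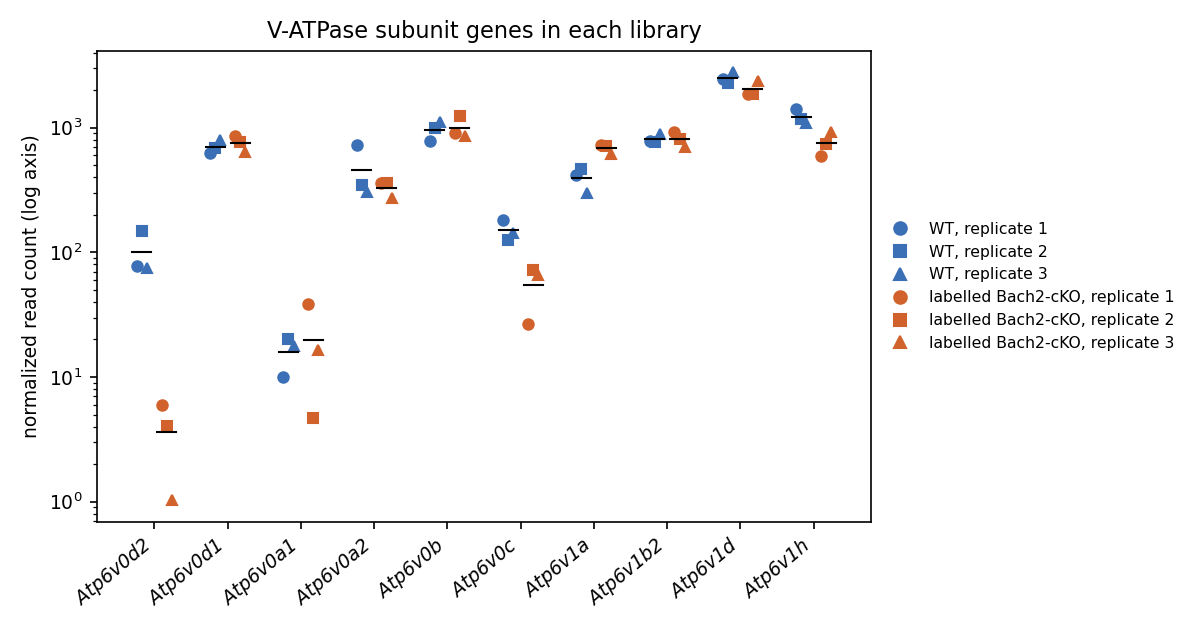
Normalized read counts (log axis) of the 10 V-ATPase subunit genes in the 3 WT libraries (blue) and the 3 libraries labelled Bach2-deficient (Bach2-cKO, orange), with a black line at each group mean. Atp6v0d2 lies at 74.9 to 149 in WT and at 1.02 to 5.91 in the other group, while the values of Atp6v0d1 lie at 629 to 856 in the 6 libraries.

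The other d subunit gene did not show this pattern. *Atp6v0d1* was at 629, 683 and 798 normalized counts in WT replicates 1, 2 and 3 and at 856, 766 and 636 in replicates 1, 2 and 3 labelled Bach2-deficient. The groups overlapped, with a log2 fold change of 0.09 (SE 0.22, 95% interval -0.39 to 0.58, limma adjusted p = 0.826). The interval leaves out any change near that of its paralog. Its sign turned to -0.00 when replicate 1 labelled Bach2-deficient was left out.

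Counted per kilobase of the longest transcript, which allows levels of different genes to be compared, *Atp6v0d2* made up 7.35%, 12.3% and 5.68% of the summed d subunit level in WT replicates 1, 2 and 3. In replicates 1, 2 and 3 labelled Bach2-deficient its share was 0.441%, 0.336% and 0.103%. The group means were 8.44% ± 3.44 (SD, n = 3) and 0.293% ± 0.173 (SD, n = 3), a share that follows from the values on which the gene was chosen. In both groups d1 was thus the main d isoform at the RNA level.

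Among the other genes of the V0 sector, *Atp6v0c*, which encodes the c subunit of the proton-carrying ring, was lower in each library labelled Bach2-deficient. It was at 182, 126 and 142 normalized counts in WT replicates 1, 2 and 3, and at 26.6, 71.7 and 65.5 in replicates 1, 2 and 3 labelled Bach2-deficient. Replicate 1 of the latter was the lowest, and the groups did not overlap. The log2 fold change was -1.55 (SE 0.48, 95% interval -2.61 to -0.48), and it did not pass the threshold (limma adjusted p = 0.155). Without that library it was -1.10.

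A processed pseudogene limits how far the *Atp6v0c* values can be read. *Atp6v0c-ps1*, on chr7:4412438-4412900, matched the *Atp6v0c* transcript at 452 of 463 aligned bases (97.6%), and 78 of its 414 windows of 50 bases (18.8%) also occur in it. The pseudogene was at 5.05, 5.61 and 5.20 normalized counts in WT replicates 1, 2 and 3 and at 1.48, 6.70 and 4.09 in replicates 1, 2 and 3 labelled Bach2-deficient. How reads that match both were counted is not given in the sources used here, so the level of *Atp6v0c* is uncertain to that extent.

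The second ring gene, *Atp6v0b*, for the c'' subunit, was at 778, 993 and 1112 normalized counts in WT replicates 1, 2 and 3. In replicates 1, 2 and 3 labelled Bach2-deficient it was at 906, 1242 and 854. The groups overlapped (log2 fold change 0.05, SE 0.23, 95% interval -0.46 to 0.57, limma adjusted p = 0.913), so the 2 ring genes gave different values, a difference between genes that was not tested. The sign for *Atp6v0b* turned without WT replicate 1, at -0.09, and without replicate 2 labelled Bach2-deficient, at -0.11.

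The a subunit genes were more uneven between libraries of 1 group. *Atp6v0a2* was at 728, 347 and 306 normalized counts in WT replicates 1, 2 and 3, and at 361, 358 and 273 in replicates 1, 2 and 3 labelled Bach2-deficient. WT replicate 1 alone stood above the rest: the log2 fold change was -0.38 (SE 0.34, limma adjusted p = 0.530) with it and 0.01 without it. After removal of a trend in transcript length and GC content the value was -0.83. *Atp6v0a1*, the isoform best known from neurons, was at 10.1, 20.2 and 17.7 in WT and at 38.4, 4.69 and 16.4 in the other group. At these low values its log2 fold change of -0.06 had a 95% interval of -2.16 to 2.04. Changes within that interval, in either direction, are thus unresolved at this depth and spread.

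In the V1 sector, *Atp6v1a*, the gene of the catalytic A subunit, had the opposite direction to *Atp6v0d2*. It was at 420, 470 and 298 normalized counts in WT replicates 1, 2 and 3, and at 732, 716 and 615 in replicates 1, 2 and 3 labelled Bach2-deficient. Each of the latter exceeded each WT library. The log2 fold change was 0.82 (SE 0.25, 95% interval 0.27 to 1.36) and missed the thresholds (limma adjusted p = 0.151). With libraries weighted by how far they depart from their group, it passed, at 1.04 (limma adjusted p = 0.000896). After removal of a trend in transcript length and GC content it was 0.59 (limma adjusted p = 0.337). Under the other alternatives its adjusted p by limma, edgeR or DESeq2 was 0.082 to 0.509.

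The H subunit gene, *Atp6v1h*, was lower in each library labelled Bach2-deficient. It was at 1414, 1173 and 1084 normalized counts in WT replicates 1, 2 and 3 and at 591, 738 and 928 in replicates 1, 2 and 3 labelled Bach2-deficient. The groups did not overlap, although the highest of the latter came near the lowest WT library. The log2 fold change was -0.72 (SE 0.23, 95% interval -1.23 to -0.20) and did not pass (limma adjusted p = 0.159). On the other strand *Rgs20* overlaps *Atp6v1h*, as *Gm12841* does *Atp6v0b*, 4930404A12Rik and Gm24854 do *Atp6v0a2*, *Slc18a1* does *Atp6v1b2*, *Slc25a18* does *Atp6v1e1*, *Nfkbil1* does *Atp6v1g2* and *Pdia6* does *Atp6v1c2*. Reads of such pairs cannot be told apart where the counting did not use strand, which is not given in the sources used here. Of these neighbors, *Slc18a1* was at 4.02 normalized counts or less in each library, *Slc25a18* at 10.3 or less and *Nfkbil1* at 41.4 or less. *Pdia6* was at 1494 to 3511, and *Rgs20*, *Gm12841* and 4930404A12Rik are not listed. On the same strand Mir6928 overlaps *Atp6v0a1* and Gm25193 overlaps *Atp6v1e1*.

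The B and D subunit genes overlapped between the groups. *Atp6v1b2*, for the B subunit, was at 786, 764 and 891 normalized counts in WT replicates 1, 2 and 3 and at 915, 810 and 704 in replicates 1, 2 and 3 labelled Bach2-deficient. Its log2 fold change was -0.01 (95% interval -0.47 to 0.45, limma adjusted p = 0.979). *Atp6v1d*, for the D subunit of the rotor and the member with the highest count, was at 2449, 2295 and 2788 in WT and at 1855, 1872 and 2347 in the other group. Only replicate 3 labelled Bach2-deficient reached the WT range, by exceeding WT replicate 2, and the log2 fold change was -0.31 (SE 0.19, limma adjusted p = 0.356).

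Taking the 9 members other than *Atp6v0d2*, each library labelled Bach2-deficient was above each WT library for 1 gene, *Atp6v1a*, and below for 2, *Atp6v0c* and *Atp6v1h*, while 6 overlapped. Over all 11296 genes tested, 14.6% lay above in this way and 12.2% below. The same 1 and 2 genes had an unadjusted p under 0.05, against 10.1% of all genes tested that were higher and 10.2% that were lower. The median log2 fold change of the 9 was -0.06, beside 0.08 over all genes tested. These members thus lay on both sides of 0 at counts near the background of all genes tested. Of the 9, 6 had a log2 fold change below 0 and 3 above 0, and the sign of those near 0 turned under some of the alternatives tried.

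By limma with an adjusted p under 0.01 and a change over 2-fold, 0 of the 11296 genes were called (0%), although 2301 had an unadjusted p under 0.05. EdgeR called 0 genes on recovered reads of 5 libraries, without WT replicate 1, and DESeq2 on the same reads called 33 higher and 57 lower, with 0 of the 17 subunit genes other than *Atp6v0d2* among them. With library weights, 4.97% of all genes tested were called higher and 5.02% lower, and 1 of those 17 genes, *Atp6v1a*, was among them. Replicate 2 labelled Bach2-deficient had the largest weight in that fit, 5.54, and WT replicate 1 the smallest, 0.206.

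**Figure D2:**
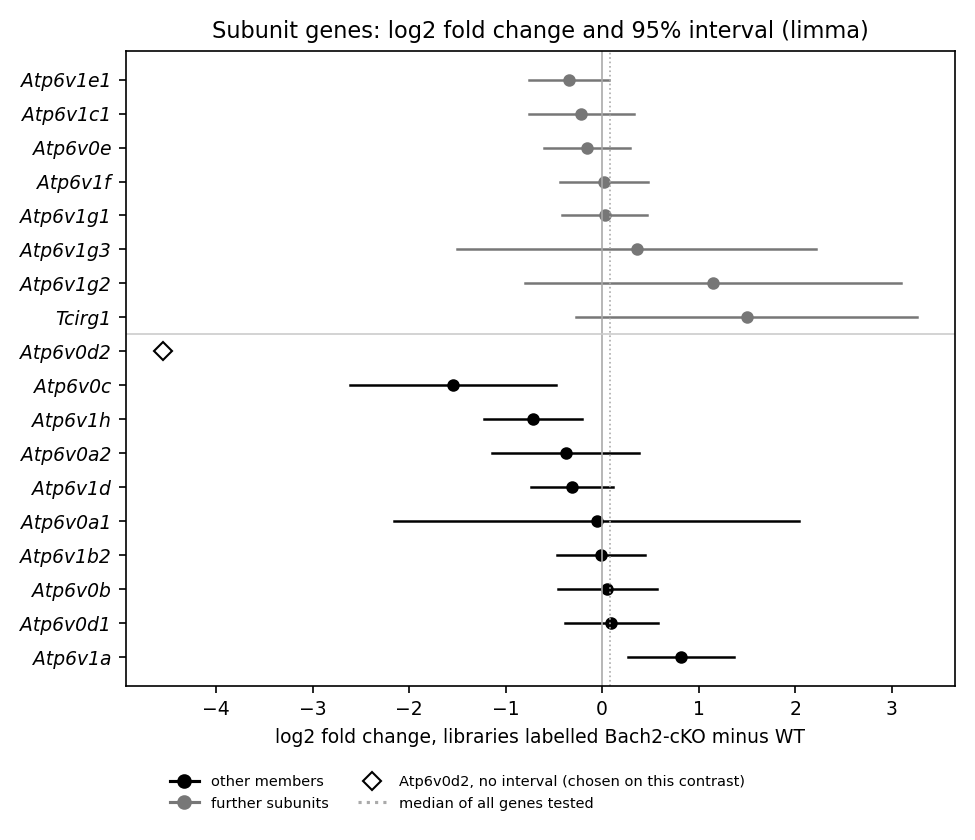
Log2 fold change (libraries labelled Bach2-deficient minus WT, 3 libraries each) of the 18 subunit genes tested, with limma 95% intervals. Gray marks the 8 subunits outside the members, and Atp6v0d2, at -4.55, has no interval because it was selected on this contrast. Of the other members the intervals of Atp6v0c, Atp6v1h and Atp6v1a leave out 0.

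The subunit genes that are not members complete the pump. Of 13 such genes, 10 are in the table and 8 were tested, and *Atp6v0a4*, *Atp6v1b1* and *Atp6v1e2* were not analysed here. Each library labelled Bach2-deficient was below each WT library for 1 of the 8, *Atp6v1e1*, and above for 0, beside 12.2% below and 14.6% above over all genes tested. Their median log2 fold change was 0.02, and -0.21 without WT replicate 1. *Atp6v1e1*, for the E subunit of the peripheral stalk, was at 1508, 1655 and 1871 normalized counts in WT replicates 1, 2 and 3. In replicates 1, 2 and 3 labelled Bach2-deficient it was at 1320, 1254 and 1384, a narrow gap to WT (log2 fold change -0.34, SE 0.19, limma adjusted p = 0.311). The abundant *Atp6v0e*, *Atp6v1f*, *Atp6v1g1* and *Atp6v1c1* overlapped between the groups, with log2 fold changes of -0.16, 0.02, 0.02 and -0.22. Without WT replicate 1 the values were -0.28 for *Atp6v0e*, -0.14 for *Atp6v1f*, -0.12 for *Atp6v1g1* and -0.41 for *Atp6v1c1*.

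*Tcirg1* encodes the a3 subunit, the isoform of lysosomes and of the osteoclast plasma membrane that works with d2 there. It was at 16.1, 142 and 123 normalized counts in WT replicates 1, 2 and 3, and at 319, 247 and 84.9 in replicates 1, 2 and 3 labelled Bach2-deficient. The groups overlapped, with WT replicate 1 far below and replicate 3 labelled Bach2-deficient within the range of WT. The log2 fold change of 1.50 (SE 0.80, limma adjusted p = 0.303) dropped to 0.51 without WT replicate 1. The direction is opposite to that of *Atp6v0d2* in both cases, but neither passed the test.

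WT replicate 1 was also the low library for the G subunit isoforms. *Atp6v1g3* was at 20.2, 227 and 282 normalized counts in WT replicates 1, 2 and 3 and at 191, 99.2 and 148 in replicates 1, 2 and 3 labelled Bach2-deficient. Its log2 fold change was 0.36 with and -0.84 without WT replicate 1. *Atp6v1g2* was at 5.05, 28.0 and 78.0 in WT and at 44.3, 63.0 and 51.1 in the other group (log2 fold change 1.15, and 0.15 without WT replicate 1). *Atp6v0e2*, at 0 to 75.7, and *Atp6v1c2*, at 0 to 4.43, did not pass the filter on low values.

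Within the a subunits, per kilobase, this library differed in the same way. Of the summed level of *Atp6v0a1*, *Atp6v0a2* and *Tcirg1*, the share of *Tcirg1* was 3.69%, 40.2% and 39.6% in WT replicates 1, 2 and 3. In replicates 1, 2 and 3 labelled Bach2-deficient it was 57.8%, 54.4% and 33.7%. *Atp6v0a2* made up 94.6%, 55.6% and 56.2% in WT and 37.1%, 44.8% and 61.6% in the other group. The order of a2 and a3 thus differed between libraries of the same group, with *Tcirg1* the larger in replicates 1 and 2 labelled Bach2-deficient only. Without division by length *Atp6v0a2* was the larger in each of the 6 libraries, at 50.2% against 44.4% for *Tcirg1* in replicate 1 labelled Bach2-deficient, so this order depends on the scale.

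By order of mean WT level per kilobase, *Atp6v1f* stood first, at 6472 ± 1326 (SD, n = 3), followed by *Atp6v1g1*, at 2170 ± 410, and *Atp6v0e*, at 2049 ± 318, whose WT ranges overlapped. *Atp6v0b* came next, at 961 ± 169, then *Atp6v1d*, at 685 ± 68.8, and *Atp6v1e1*, at 573 ± 62.3, again with overlapping ranges. *Atp6v0d1*, at 432 ± 52.9, overlapped neither neighbor. *Atp6v1b2*, *Atp6v1h* and *Atp6v1c1*, at 238 to 288, could not be ordered beyond their spread. Below them, neighbors from *Atp6v1a*, at 93.6 ± 20.8, to *Atp6v0a1*, at 3.84 ± 1.26, overlapped in WT.

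*Atp6v0d2* was 15th of 20 in this order, at 39.6 ± 16.6 normalized counts per kilobase, between *Atp6v0c*, at 58.4 ± 11.2, and *Tcirg1*, at 30.8 ± 22.3, and its WT range overlapped both. Among the libraries labelled Bach2-deficient its place by the mean was 20th of 20, at 1.44 ± 0.971. Its range there overlapped that of *Atp6v1c2*, the 19th, at a mean of 1.65. *Atp6v0d2* was the lowest of these genes in replicate 1 only. Subunits that occur together in a pump thus differed widely at the RNA level in WT cells. The 3' priming of the cDNA kit and unequal use of transcripts are not accounted for by dividing by the length of the longest transcript.

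**Figure D3:**
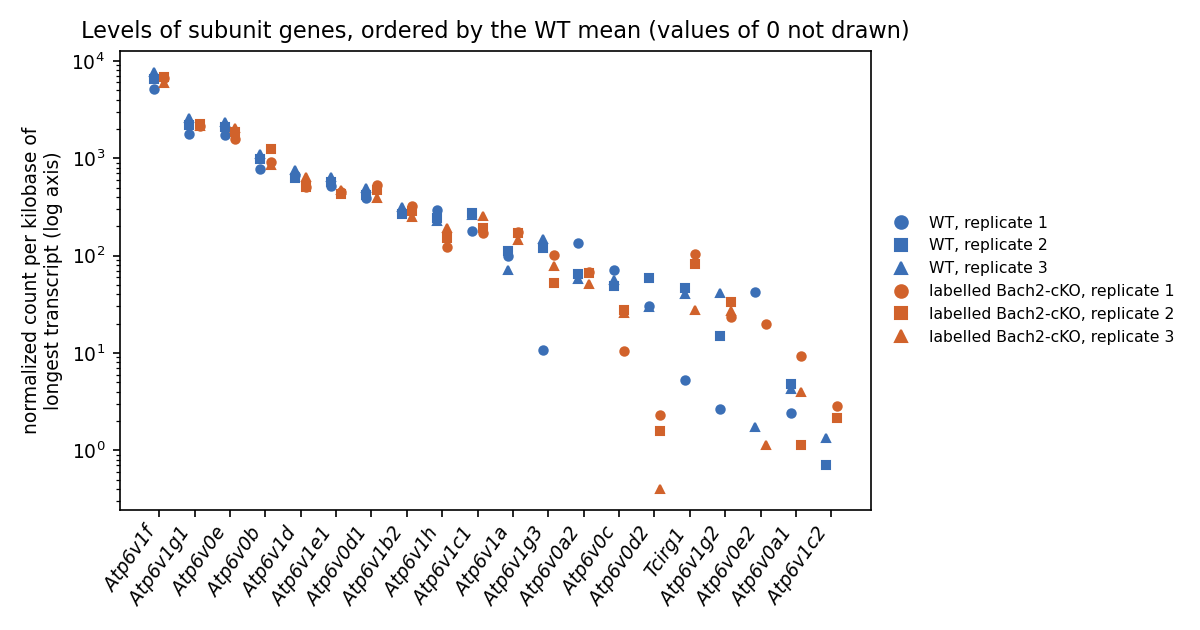
Normalized counts per kilobase of the longest transcript (log axis) for the 20 subunit genes in the table, ordered by the WT mean, with WT libraries in blue and libraries labelled Bach2-deficient (Bach2-cKO) in orange. Atp6v1f is highest, at a WT mean of 6472. By group means Atp6v0d2 drops from place 15 in WT to place 20 in the other group, where its range overlaps that of Atp6v1c2.

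Promoters were read for motifs known to matter for lysosomal genes and for the Bach family. RefSeq promoters of GRCm38.p6, 300 bases that run from 250 before the start of transcription to 50 after it, matched 6 of the 10 members by symbol: *Atp6v0d1*, *Atp6v0a1*, *Atp6v0b*, *Atp6v0c*, *Atp6v1a* and *Atp6v1d*. The E-box CACGTG, the core of the element bound by TFEB and related factors, which reads the same on both strands, was present in 3 of these 6, *Atp6v0d1*, *Atp6v0b* and *Atp6v1a*. Of all 32851 RefSeq promoters 7.15% hold it, and of the 27025 genes they belong to 8.09%. Of the 17 subunit genes with a promoter there, these 3 and *Atp6v0e*, 4 in all, have it. TGANTCA, the core that AP-1 and Bach proteins can bind, was found on either strand in 1 of the 6, *Atp6v0a1*, against 7.81% of all promoters and 8.97% of all genes. A match describes the letters in this window and not a bound site. In GENCODE M21 the windows of *Atp6v0a1*, *Atp6v0e* and *Atp6v1a* lie wholly inside the annotated gene, downstream of its 5' end.

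The promoters of *Atp6v1a*, which was above WT in each library labelled Bach2-deficient, and of *Atp6v0d1*, which overlapped between the groups, are printed to show that both hold the E-box (capitals). That of *Atp6v1a* lies at chr16:44139210-44139509 and that of *Atp6v0d1* at chr8:105566015-105566314, both on the minus strand of GRCm38.p6 and written in the direction of transcription.
Atp6v1a: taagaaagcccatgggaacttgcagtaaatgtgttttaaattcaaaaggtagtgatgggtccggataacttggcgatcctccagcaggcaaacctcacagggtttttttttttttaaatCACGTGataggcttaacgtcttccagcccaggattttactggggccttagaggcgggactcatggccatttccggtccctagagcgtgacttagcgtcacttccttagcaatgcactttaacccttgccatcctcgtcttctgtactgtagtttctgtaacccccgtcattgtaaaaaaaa
Atp6v0d1: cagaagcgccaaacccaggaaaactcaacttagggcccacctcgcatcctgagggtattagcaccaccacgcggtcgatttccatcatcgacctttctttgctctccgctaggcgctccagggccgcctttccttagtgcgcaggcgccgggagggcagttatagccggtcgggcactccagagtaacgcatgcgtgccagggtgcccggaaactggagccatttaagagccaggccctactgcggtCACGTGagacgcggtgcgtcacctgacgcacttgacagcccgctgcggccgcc
The E-box starts 131 bases before the RefSeq start of transcription in *Atp6v1a* and 3 bases before it in *Atp6v0d1*. GENCODE M21 places the 5' end of *Atp6v1a* further upstream, at base 44139705, so that the whole window printed lies inside the gene as annotated there.

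Genes around the pump were described from lists drawn up by function. Of 14 accessory and assembly genes 11 were tested. Of these, 0 had an unadjusted p under 0.05, beside 10.1% higher and 10.2% lower over all genes tested. Each library labelled Bach2-deficient was below each WT library for 2, *Rogdi* and *Vma21*, and above for 0. Over all genes tested these shares were 12.2% and 14.6%. The median log2 fold change of the 11 was -0.16. *Rogdi*, a protein related to V-ATPase assembly factors, was at 234, 255 and 183 normalized counts in WT replicates 1, 2 and 3 and at 157, 160 and 117 in replicates 1, 2 and 3 labelled Bach2-deficient (log2 fold change -0.63, limma adjusted p = 0.276). *Vma21*, a chaperone of V0 assembly in the endoplasmic reticulum, gave -0.26 on the same scale (limma adjusted p = 0.421). The most abundant gene of the list, *Atp6ap2*, had -0.45, and the highest values were those of *Wdr7*, at 0.63, and *Ccdc115*, at 0.56, none of which passed the test. Over 11264 genes the log2 fold change was correlated with transcript length (Spearman's rho = 0.320 across genes, which are not independent replicates). After a trend in length and GC content was taken off each library, the values were -0.03 for *Atp6ap2*, 0.13 for *Wdr7* and 0.91 for *Ccdc115*. With library weights they were -0.83, 0.95 and 0.04 in the same order. Without WT replicate 1 that of *Ccdc115* was 0.36.

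The lysosome list holds hydrolases and membrane proteins that need or surround an acidic lumen. Of 30 genes tested 9 had an unadjusted p under 0.05 and were lower, 1, *Neu1*, was higher, and in 10 each library labelled Bach2-deficient was below each WT library, against 3 above, *Naglu*, *Neu1* and *Npc1*. Beside these counts stand, over all genes tested, 10.2% lower and 10.1% higher at that p, and 12.2% below and 14.6% above by the other rule. Its median log2 fold change was -0.10, with 15 genes above 0 and 15 below, and 0 genes were called. The summed normalized counts of the list were 27272, 25984 and 30814 in WT replicates 1, 2 and 3 and 19912, 21185 and 21613 in replicates 1, 2 and 3 labelled Bach2-deficient.

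*Ctsb*, a cysteine protease and the most abundant gene of the list, carried much of that sum. It was at 8606, 7201 and 10263 normalized counts in WT replicates 1, 2 and 3 and at 4812, 3556 and 4901 in replicates 1, 2 and 3 labelled Bach2-deficient, without overlap. Its log2 fold change was -0.97 (SE 0.21, 95% interval -1.45 to -0.50, limma adjusted p = 0.141), and it passed with library weights, at -1.29 (limma adjusted p = 0.000282). Under the other alternatives its adjusted p by limma, edgeR or DESeq2 was 0.0111 to 0.507. *Gla*, alpha-galactosidase, had a log2 fold change of -1.17, and it did not pass (limma adjusted p = 0.192), but passed with library weights, at -1.28 (limma adjusted p = 0.00622). Its adjusted p by limma, edgeR or DESeq2 was 0.138 to 0.528 under the other alternatives. The highest values of the list were those of *Naglu*, at 2.20, and *Cd63*, at 2.19. WT replicate 1 was the lowest library for both, and without it the log2 fold change was 1.05 for *Naglu* and -0.25 for *Cd63*.

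The MiT/TFE factors, which activate lysosomal genes, were at low levels. None of the 4 tested separated the groups, and their median log2 fold change was 0.87. *Tfeb* was at 11.1, 30.3 and 61.3 normalized counts in WT replicates 1, 2 and 3 and at 70.9, 65.0 and 52.2 in replicates 1, 2 and 3 labelled Bach2-deficient (log2 fold change 1.14, limma adjusted p = 0.345). *Tfe3*, the most abundant, had 0.60, *Tfec* 2.14 and *Mitf* -0.36. WT replicate 1 was the lowest library for *Tfeb*, *Tfe3* and *Tfec*, and without it the values were 0.52, 0.53 and 0.87. That of *Mitf*, for which this library was the highest, was -0.02. After removal of the trend in length and GC content *Tfe3* was at 0.05.

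Another list holds 16 genes of mTORC1 and of its anchoring and regulation at the lysosome, where the V-ATPase contacts the Ragulator complex. Of these, 2 had an unadjusted p under 0.05 and were lower and 0 were higher, beside 10.2% and 10.1% of all genes tested. Each library labelled Bach2-deficient was above each WT library for 2, *Rragd* and *Fnip2*, and below for 3, *Lamtor1*, *Lamtor3* and *Rheb*, beside the 14.6% above and 12.2% below over all genes tested. The median log2 fold change was 0.21. *Lamtor1*, the Ragulator subunit that anchors the complex in the membrane, was at 1781, 1560 and 1956 normalized counts in WT replicates 1, 2 and 3 and at 786, 921 and 1487 in replicates 1, 2 and 3 labelled Bach2-deficient (log2 fold change -0.78, limma adjusted p = 0.161). *Rheb*, the GTPase that activates mTORC1, had -0.69 (limma adjusted p = 0.151). The most abundant gene, *Lamtor5*, had -0.26, and the highest values, 1.87 for *Rragd* and 1.34 for *Fnip2*, came at counts of 36.9 or less in each library. *Rragd* was at 0 in WT replicate 1, and its value was 0.24 without it. That of *Fnip2* was 0.86 without WT replicate 3.

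*Stx17*, *Snap29* and *Vamp8* form the SNARE complex that joins autophagosomes to lysosomes, and d2 is known as a partner of that step in macrophages. *Vamp8* was at 1400, 1805 and 2303 normalized counts in WT replicates 1, 2 and 3 and at 1533, 1815 and 2090 in replicates 1, 2 and 3 labelled Bach2-deficient, and *Stx17* was at 20.2, 131 and 163 and at 120, 125 and 155. Both overlapped between the groups, and WT replicate 1 was low for *Stx17*. Of the 18 genes of this list 1 had an unadjusted p under 0.05 and was higher, *Plekhm1* (log2 fold change 1.26, limma adjusted p = 0.179), and 1 was lower, *Map1lc3b* (log2 fold change -0.49, limma adjusted p = 0.203), beside 10.1% and 10.2% of all genes tested. After removal of that trend these were at 0.51 and -0.87. Each library labelled Bach2-deficient was above each WT library for 4, *Ykt6*, *Vps18*, *Plekhm1* and *Epg5*, and below for 2, *Vps41* and *Map1lc3b*, beside the same 14.6% and 12.2%, with a median log2 fold change of 0.01. *Epg5* had the highest value, 1.91 (0.45 without WT replicate 1), *Vps41* was second lowest, at -0.40, and the most abundant gene, *Gabarap*, had -0.09.

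**Figure D4:**
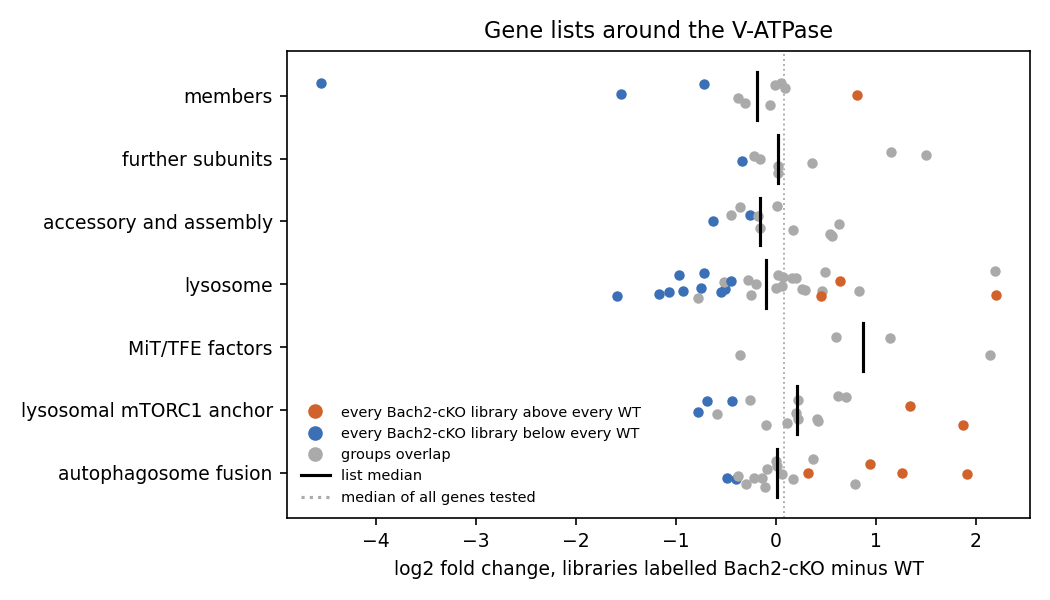
Log2 fold change (libraries labelled Bach2-deficient minus WT, 3 libraries each) of each gene tested in the 7 lists around the V-ATPase, with the list median as a black bar and the median of all genes tested, 0.08, as a dotted line. Colored points are genes whose groups do not overlap, of which the lysosome list has 10 below and 3 above. Atp6v0d2, at -4.55, lies apart from the other genes drawn, which follows from its selection on this contrast.

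Since d2 is known from macrophages and osteoclasts, markers of these cells were set beside it, followed by those of other cells. Each marker count at an unadjusted p under 0.05 stands beside the 10.1% higher and 10.2% lower over all genes tested. Of 15 macrophage and monocyte markers 14 were tested, 2 had an unadjusted p under 0.05 and were higher, *Marco* and *Mertk*, 2 were lower, *Cd68* and *Fcgr1*, and the median log2 fold change was 0.22. Their summed normalized counts were 3557, 12380 and 7334 in WT replicates 1, 2 and 3 and 5313, 9923 and 3987 in replicates 1, 2 and 3 labelled Bach2-deficient. The groups thus overlapped in this sum, whereas they did not in *Atp6v0d2*, and WT replicate 2 was the highest library in both. *Lyz2*, the most abundant, was at 1848, 7212 and 3444 in WT and at 1445, 4396 and 1407 in the other group, and *Csf1r*, the receptor that defines the lineage, was at 14.1, 212 and 152 and at 214, 371 and 177. Each library labelled Bach2-deficient was below each WT library for 2 markers, *Cd14* and *Fcgr1*, as for *Atp6v0d2*, and above for 1, *Mertk*, beside 12.2% below and 14.6% above over all genes tested. *Cd14*, with the lowest log2 fold change of the list, -2.29, was at 28.3, 30.3 and 17.7 in WT and at 2.96, 17.4 and 1.02 in the other group. Of the list, *Itgam* was at 0 in WT replicate 1, and the part of these cells in the difference of *Atp6v0d2* was not tested.

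Of 7 osteoclast markers 3 are listed and 1 was tested. *Acp5* was at 1704, 1815 and 1773 normalized counts in WT replicates 1, 2 and 3 and at 1249, 997 and 1803 in replicates 1, 2 and 3 labelled Bach2-deficient, and it overlapped between the groups (log2 fold change -0.43, limma adjusted p = 0.315). *Ctsk*, the protease that defines osteoclasts, was at 0 in 4 of the 6 libraries and at most at 14.6, in WT replicate 2. *Mmp9*, a matrix protease, was at 2.08 or less in the WT libraries and at 4.43, 12.1 and 12.3 in the other group, which separates the groups in the direction opposite to *Atp6v0d2*, at values too low for the filter. *Dcstamp*, *Ocstamp*, *Calcr* and *Oscar* were not analysed here. The part of such cells in the difference of *Atp6v0d2* was not tested.

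Some markers of other cells separated the groups. Of 8 Th17 markers 7 were tested, 3 had an unadjusted p under 0.05 and were lower, *Il17f*, *Il23r* and *Ccr6*, and the summed normalized counts were 1758, 1384 and 1039 in WT replicates 1, 2 and 3 and 1373, 734 and 815 in replicates 1, 2 and 3 labelled Bach2-deficient. *Il17f* was at 645, 183 and 64.5 in WT and at 13.3, 4.02 and 5.11 in the other group, and *Ccr6*, a chemokine receptor of Th17 cells, was at 645, 273 and 227 and at 59.1, 62.3 and 50.1 (log2 fold change -2.56, limma adjusted p = 0.141). *Rora*, the most abundant, at 0.73, and *Il1r1*, at 0.64, had log2 fold changes above 0 and overlapped between the groups. *Il17a* and *Il22* were at 0 in WT replicate 1, *Il17a* also in replicate 2 labelled Bach2-deficient and *Il23r* in replicate 3. In each WT library *Il17f* and *Atp6v0d2* were above each library labelled Bach2-deficient, and within WT *Il17f* was highest in replicate 1 and *Atp6v0d2* in replicate 2. The part of Th17 cells in the difference of *Atp6v0d2* was not tested.

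Of 10 B cell markers 8 are in the table and 7 were tested, 2 with an unadjusted p under 0.05 and lower, *Ms4a1* and *Cd74*, and their summed normalized counts were 11060, 14180 and 9728 in WT replicates 1, 2 and 3 and 3467, 8695 and 3562 in replicates 1, 2 and 3 labelled Bach2-deficient. *Cd74*, the invariant chain, which other antigen-presenting cells also express, made up most of it. *Fcer2a*, at 2.33, and *Blnk*, at 1.26, had log2 fold changes above 0 at low counts, and both were at 0 in WT replicate 1. Of 5 Treg markers 2 had an unadjusted p under 0.05 and were lower, *Foxp3* (log2 fold change -1.76, limma adjusted p = 0.141) and *Il10* (-1.38, limma adjusted p = 0.204), and the sums were 4575, 5168 and 6375 against 5788, 4609 and 3737, led by *Ikzf2*. Of 8 dendritic cell markers 0 had an unadjusted p under 0.05, with sums of 940, 525 and 318 against 401, 531 and 219.9. *Siglech* had the highest mean over the 6 libraries, but in WT replicate 1 *Cd209a* made up 606 of the sum, and *Clec9a* was at 0 in WT replicate 1. The part of these cells in the difference of *Atp6v0d2* was not tested.

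The labelled cell type was checked against its markers, and the 12 Tfh and CD4 T cell genes were above 0 in each library. *Cxcr5* was at 1613, 1444 and 2039 normalized counts in WT replicates 1, 2 and 3 and at 2028, 1271 and 2207 in replicates 1, 2 and 3 labelled Bach2-deficient, and *Pdcd1* was at 2708, 1594 and 2403 and at 2159, 1462 and 1927. Both, which the sort selected on, overlapped between the groups. *Cd4* and *Cd44*, on which it also selected, did not. *Cd4* was at 2500, 2407 and 2792 in WT and at 4131, 3341 and 3349 in the other group. *Cd44* was at 1090, 1776 and 1741 in WT and at 3856, 2615 and 2313 in the other group. Of the 12, each library labelled Bach2-deficient was above each WT library for 4 and below for 2. Over all genes tested the shares were 14.6% above and 12.2% below. Summed counts of the 12 were 49072, 55001 and 72218 in WT and 49257, 43079 and 53834 in the other group, led by *Cd3g*, and 4 had an unadjusted p under 0.05 and were higher, *Cd4*, *Cd44*, *Bcl6* and *Tox2*, and 2 were lower, *Cd3e* and *Icos*.

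Over the 6 libraries, the genes with a mean of at least 50 normalized counts whose log2 values were most like those of *Atp6v0d2* were *Gps2* (Pearson's r = 0.974), *Mynn* (0.972), *Zfp433* (0.967), *Vma21* (0.965) and *Zfp97* (0.959), of 8960 compared. These correlations are a description: the points share the difference between the groups, so a gene that separates them evenly ranks high. *Gps2*, a subunit of a corepressor complex, was at 912, 861 and 934 in WT replicates 1, 2 and 3 and at 480, 478 and 419 in replicates 1, 2 and 3 labelled Bach2-deficient. Among the subunit genes the highest r were those of *Atp6v1e1*, at 0.795, *Atp6v0c*, at 0.736, and *Atp6v1h*, at 0.719, and that of *Atp6v1a* was -0.776.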

How the data were processed

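The authors deposited signal values made from reads counted per gene with HTSeq and divided by a size factor of each library (DESeq2). The aligner is Tophat2 in the study's methods and STAR 2.5.2b in the submitters' notes, which also name DESeq2 1.20.0, R 3.5.1 and GRCm38. SMARTer Ultra Low cDNA was sequenced, and whether counting used strand is not stated. In each library 100% of the values were whole multiples of the smallest value (tolerance 0.01). WT replicate 1 has a step of 1.01, too near 1 to tell reads from scaled values, and was left out of the count tests.

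Values were compared on log2(value + 1) with limma 3.58.1 in R 4.3.3, its variance trend switched on. Tested were 11296 genes with 10 or more in 3 or more libraries, and Benjamini-Hochberg adjustment covered these. A gene was called at an adjusted p under 0.01 and a change over 2-fold. Alternatives were edgeR 4.0.16 and DESeq2 1.42.0 on recovered reads of 5 libraries, pseudocounts of 0.5 and 5, no filter, a mean of at least 50, quantile normalization, no variance trend, library weights, a replicate block, removal of a trend in transcript length and GC content, and leaving out each library. Positions, lengths and coding sequences came from GENCODE M21, matched by symbol for 14329 genes and by an older symbol for 364. Sequences were handled with biopython 1.88 and tables with pandas 2.3.3. Coding sequences were compared as nucleotides.

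The members and lists were chosen with earlier results of these data known. Named were each subunit gene, from each pathway list up to 2 genes with the largest rise, up to 2 with the largest fall and the most abundant, the 5 genes most correlated with *Atp6v0d2*, and *Bach2*. Marker genes and other genes outside this rule were named after their values were seen.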

Additional observations from a re-analysis of the deposited data

How the results depend on the processing

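Genes called numbered 561 higher and 567 lower with library weights and 33 higher and 57 lower with DESeq2, and 0 in both directions under the other alternatives, leaving out each library included. The log2 fold change of *Atp6v0d2* kept its sign under each alternative and was -3.58 with a pseudocount of 5, which shrinks changes of low values by construction, and -4.92 to -4.03 without single libraries.

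The median of the 9 other members was -0.16 with a mean of at least 50, where 1 member is not tested, -0.16 with quantile normalization, -0.34 after removal of the trend in length and GC content, and -0.26 to 0.0374 without single libraries. That of the further subunits was 0.24 after removal of that trend, -0.22 with edgeR, -0.24 with DESeq2, and -0.21 to 0.16 without single libraries. The median of all genes tested moved from 0.08 to -0.04 with that trend removed. Without division by length the *Atp6v0d2* share was 12.5% in WT and 0.456% in the other group.

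The sign of some log2 fold changes turned, and the cause was not tested. With DESeq2 the values were -0.00899 for *Atp6v0d1*, 0.000339 for *Atp6v0a1*, -0.10 for *Atp6v0b*, -0.17 for *Atp6v1f*, -0.15 for *Atp6v1g1*, -0.0302 for *Atp6v1g2*, -0.84 for *Atp6v1g3* and -0.11 for *Cd63*. With edgeR they were 0.00633 for *Atp6v0a1*, 0.00925 for *Atp6v0a2*, -0.0771 for *Atp6v0b*, -0.15 for *Atp6v1f*, -0.13 for *Atp6v1g1*, -0.81 for *Atp6v1g3* and -0.0819 for *Cd63*. Library weights gave 0.0849 for *Atp6v0a2*, -0.10 for *Atp6v1f*, -0.11 for *Atp6v1g1* and -1.06 for *Atp6v1g3*. Quantile normalization gave 0.0805 for *Atp6v1b2*, 0.00494 for *Atp6v0e* and 0.0663 for *Gabarap*. Removing the length and GC trend gave 0.0293 for *Atp6v1b2*, 0.0127 for *Atp6v0e*, 0.0266 for *Lamtor5* and 0.16 for *Gabarap*, and a pseudocount of 5 gave 0.0201 for *Atp6v0a1*.

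Without single libraries the values ran from -0.00353 to 0.21 for *Atp6v0d1*, -0.72 to 0.68 for *Atp6v0a1*, -0.61 to 0.0103 for *Atp6v0a2*, -0.11 to 0.17 for *Atp6v0b*, -0.10 to 0.0844 for *Atp6v1b2*, -0.14 to 0.16 for *Atp6v1f*, -0.12 to 0.16 for *Atp6v1g1*, -0.84 to 1.03 for *Atp6v1g3*, -0.25 to 3.51 for *Cd63* and -0.24 to 0.0254 for *Gabarap*.

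With the replicate block, 0 genes were called by limma and 2051 had an unadjusted p under 0.05, and the block leaves each log2 fold change as it was by construction. The replicate numbers do not mark pairs in the labels. Among the subunit genes the smallest adjusted p was 0.222 with the block and 0.0569 without replicate 3 labelled Bach2-deficient. The low values of *Atp6v0d2*, 11 summed reads in the libraries labelled Bach2-deficient, limit how well its change can be sized.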

Other observations

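Beside *Atp6v0d2*, the 5 genes with the lowest log2 fold changes held 4 others, which were picked after their values were seen. *Ccl20* was at 397, 233 and 67.6 normalized counts in WT replicates 1, 2 and 3 and at 53.2, 1.34 and 1.02 in replicates 1, 2 and 3 labelled Bach2-deficient. *Snai2*, a transcription factor, was at 66.6, 13.5 and 20.8 in WT and at 1.48, 0.67 and 0 in the other group. *Gucy1a3*, a subunit of soluble guanylate cyclase, was at 53.5, 173 and 37.4 in WT and at 4.43, 1.34 and 6.14 in the other group. *Il17f* was the fourth, and neither these genes nor *Il17f* overlapped between the groups.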
